A study of Urocitellus parryii with 3 samples.

Results

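Abundant small RNA positions of the arctic ground squirrel liver were searched for a second, less abundant position close by, which for a miRNA is where the other arm of its hairpin lies. An anchor was a table line with at least 500 reads over the 3 stages in reads of 20 to 24 placed bases. A partner was any line on the same scaffold and strand, 25 to 60 bases away by position, with fewer such reads than the anchor. The miR-122 locus on GeneScaffold 256 was left out. Of 866747 lines in the table, 379193 held reads of 20 to 24 placed bases, 1277 of them were anchor lines and 2887 were partner lines. The members were thus chosen by reads summed over the stages and by distance, and a partner total below the anchor total is part of the choice, not a result.

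Small RNA came from the liver of Urocitellus parryii, a rodent that hibernates in bouts of torpor broken by arousals. Post-reproduction animals (6 pooled, 16 h light and 8 h dark) were the summer animals outside hibernation, and early arousal (4 pooled) and late torpor (4 pooled) animals were hibernators kept at 4 h light and 20 h dark, so in a comparison with post-reproduction the effects of hibernating and of the shorter light period cannot be told apart. The hibernators carried temperature transmitters, had passed 4 or more torpor bouts and, as labelled, were killed on day 4 of a bout, whereas the summer animals were first anesthetized with isoflurane, which differs between the groups in the same way. Each stage is 1 library of mixed RNA, with no replicate and no test. A ratio here compares 2 libraries, and its 95% interval covers the counting error of reads only. PCR reads carry no molecular identifiers, so copies of the same molecule are counted as separate reads, which the interval does not allow for. The libraries held between 5611673 and 5860476 placed reads, of which the omitted miR-122 line took between 70.1% and 75.3%. That line is the hepatocyte marker of the tissue label. The other 4 hepatocyte markers looked for, miR-192, miR-194, miR-148a and miR-455, gave no anchor line.

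A miRNA is cut from a hairpin precursor, first by Drosha in the nucleus and then by Dicer in the cytoplasm. The cuts leave a short duplex of the 5p and the 3p arm, with a 2-base overhang at each 3′ end. One arm, the guide, is usually kept in an Argonaute protein, and the other, the passenger or star arm, is usually degraded, so the ratio of the arms reflects strand choice and stability as well as how much precursor is processed. Fragments of rRNA and tRNA can also lie side by side on one strand without having been a Dicer duplex.

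The sequences of 7 pairs show what an anchor and its partner look like, chosen because the stage comparisons turn on them or because they contrast the kinds of RNA. Each is the leading read of its line, 5′ to 3′ and with T for U, and capitals mark the bases that pair (A with T, G with C or G with T) in the best register. Names of miRNAs, rRNAs and tRNAs come from general knowledge of their sequences and were not checked against a database.
miR-221-3p, anchor: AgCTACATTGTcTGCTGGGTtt
miR-221-5p, partner: ACCTGGCAtACAATGTAGaTtt
miR-9-5p, anchor: TcTTTGGTTATCTAGCTgTATga
miR-9-3p, partner: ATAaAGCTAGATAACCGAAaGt
miR-30a-5p, anchor: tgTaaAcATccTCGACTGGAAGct
miR-30a-3p, partner: CTTTCAGTCGGatGTtTgcAg
miR-25-3p, anchor: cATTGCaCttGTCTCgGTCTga
miR-25-5p, partner: AGGCgGAGACttGgGCAATtgct
miR-486-5p, anchor: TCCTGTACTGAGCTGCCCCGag
miR-486-3p, partner: CGGGGCAGCTCAGTACAGGAt
let-7a-5p, anchor: tGAGGTAGTAGGTTGTATAGttt
let-7a-3p, partner: CTATACAATCTACTGTCTTtc
28S rRNA pair 1, anchor: aaCGAgaaCTtTgaAgGccgaagt
28S rRNA pair 1, partner: aTgTgaAcAGcagTTGaacat
The miRNA pairs other than miR-30a form one run of pairs with few breaks. miR-30a has such a run with scattered matches beside it, whereas the 28S rRNA pair has scattered matches only. The register allows no bulge, so bases beyond a bulge in the hairpin can be left unmarked. The arms of miR-486 are complementary over 20 bases, and the same reads were placed on both strands of GeneScaffold 3710. Such reads are counted in full on each strand, so this does not show RNA made from both. The anchor of miR-221 lies at positions 32464 to 32485 of scaffold 16359 on the minus strand and its partner at 32504 to 32525. The arms of miR-9 lie at 3456 to 3478 and 3495 to 3516 of scaffold 10093 on the plus strand, and the same reads were placed at 2 further loci. Those of miR-30a lie at 19957 to 19980 and 19919 to 19939 of scaffold 2151 on the minus strand. No genome build is named in the sources used here, so these positions are those of the deposited table.

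Anchor lines within 60 bases of a more abundant one were joined into 1188 loci, of which 611 had any partner line and 164 had a lead partner, the partner line with most reads, of at least 10 reads. Many loci are copies that carry the same reads. Counting the loci with the same leading anchor and partner sequences once left 151 distinct pairs, 97 with a partner, 45 with at least 10 partner reads and 25 with at least 50. Most partner lines were thin: 934 of the 2887 had 1 read, 743 had at least 10 and 12 had at least 500. Most of these lines were filled in post-reproduction, where 2547 had a read, against 1245 for early arousal and 1086 for late torpor. Copies are counted at each placement here. The difference is not particular to partners. Of all positions with at least 50 reads over both libraries, 48.4% were at least 2-fold lower in early arousal than in post-reproduction. In late torpor 55.8% were. The lowest anchor line had 500 reads and the highest line left out had 499. At distances of 24 and 25 bases 21 loci each had a less abundant line, with at most 381 and 21 reads, and at 60 and 61 bases there were 27 and 25 loci, with at most 92 and 72 reads.

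The 151 pairs fell into 74 miRNA hairpins, 26 pairs of rRNA, tRNA or Y RNA and 51 unnamed ones. Taking each named hairpin once, 59 of 68 had a partner line and 29 had at least 10 partner reads. Among the unnamed pairs, 13 of 51 had a partner and 1 reached 10 reads, with 22 partner reads, all from the post-reproduction library, on an anchor of 640 (post-reproduction), 128 (early arousal) and 172 reads (late torpor) at 101 loci. The count of 0 allows a share of up to 2.34% for early arousal and 1.74% for late torpor, both below the 3.44% of post-reproduction.

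Pairing and first base were not used to choose the members, while read length was used through the limits of 20 and 24 bases, so every length given here lies within them. Pairing differed between the kinds of RNA. The kinds were named from known sequences, and the arms of a known hairpin pair with each other. This contrast is therefore not independent of the names, and each count is that of the best register within 4 bases. The 29 hairpins paired over a median of 16 bases (11 to 20), while 13 pairs of rRNA or tRNA paired over a median of 9 (7 to 14). Within the 25-to-60-base window the hairpins had a median of 3 partner lines (1 to 8), and the lead line held a median of 81.5% of all partner reads (38.7% to 100%). Around rRNA and tRNA anchors the median was 30 lines (5 to 56), and the lead line held 24.5% (10.6% to 76.7%). The 14 paired bases at the upper end of the second group belong to 2 tRNA pairs, whose anchor is the 5′ end and whose partner lies toward the 3′ end of the molecule. In 12 of the 29 hairpins the best register was 1 base off the 2-base overhang in one direction, in 7 it was 1 base off in the other, and in 5 it was exact. The hairpin partners lay 33 to 57 bases away, with a median of 39, and the longest distances belonged to let-7a (51), let-7d (54) and miR-98 (57).

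**Figure D1:**
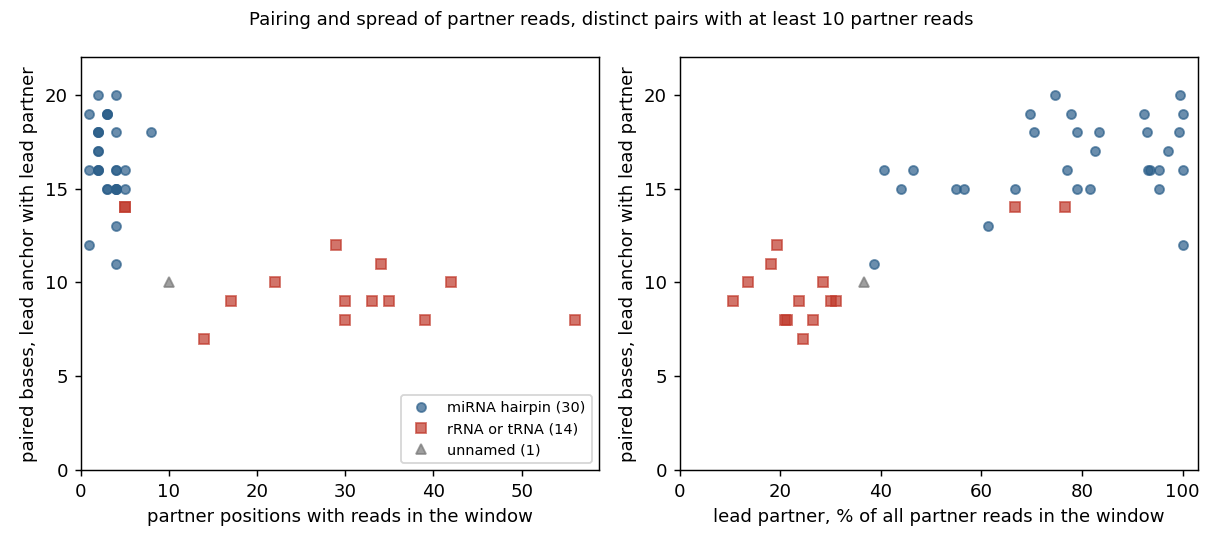
Paired bases between lead anchor and lead partner (vertical axes) against the number of partner positions with reads in the window (left) and the lead partner's percentage of all partner reads in the window (right), for the 45 distinct pairs with at least 10 partner reads. Each point is 1 pair. The 30 hairpin pairs (miR-486 appears on both strands) have at most 8 partner positions, whereas the rRNA pairs have 14 to 56 and at most 12 paired bases.

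Within the lengths counted, reads on the hairpin lines mostly had one length. Over the 16 hairpins with at least 50 partner reads, the most frequent length held a median of 81% of anchor reads and 84.0% of partner reads. Partner reads of 8 rRNA pairs spread over lengths, with 37.5% at the most frequent one. All partner reads of miR-25-5p had 23 bases and all those of miR-143-5p had 22. The mean length moved little over the stages, by a median of 0.069 bases on the hairpin partner lines and 0.040 on the anchor lines. First bases differed between the arms: 16 of 29 hairpin anchors started with T, and 1 of 29 partners did. Partners started with C in 12, A in 10 and G in 6 cases. The anchor was the 5p arm in 15 hairpins and the 3p arm in 14.

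The share is the number of partner reads per 100 anchor reads on the lead lines. From here on, triplets of values follow the order post-reproduction (summer), early arousal, late torpor. miR-221, known for repressing the cell cycle inhibitor Cdkn1b, had 4191, 5022 and 4334 partner reads on 6123, 4994 and 5342 anchor reads. Its shares were 68.4% (65.8 to 71.2), 101% (96.7 to 105) and 81.1% (77.9 to 84.5). Early arousal was highest and post-reproduction lowest, with 3 intervals that do not overlap. On the minus strand a line collects reads with one 3′ end, so the arms were also summed over all lines within 5 bases, which gave 69.4%, 93.2% and 81.1%. The 2 arms of miR-221 were thus near equal in early arousal.

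Next came miR-9, a miRNA best known from neurons, with 484, 920 and 485 partner reads on 1270, 1841 and 1250 anchor reads. Its shares were 38.1% (34.3 to 42.4), 50% (46.1 to 54.1) and 38.8% (34.9 to 43.1), so early arousal stood above the others. miR-30e had 142, 193 and 153 partner reads and shares of 26.5% (21.9 to 32.0), 36.6% (30.9 to 43.3) and 26% (21.6 to 31.1), again highest in early arousal. miR-23b, which shares a cluster with miR-27b, had 71, 121 and 67 partner reads and shares of 39.0% (29.2 to 51.6), 54.8% (43.5 to 68.6) and 36.2% (27.0 to 48.1). The intervals of these last 2 hairpins overlap between stages.

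A second form, that of miR-30a, was a share that was low in post-reproduction and about equal in both hibernation stages. miR-30a, of the same family as miR-30e, a family known for roles in autophagy and differentiation, had 127, 168 and 168 partner reads on 2233, 1624 and 1552 anchor reads. Its shares were 5.69% (4.72 to 6.80), 10.3% (8.77 to 12.1) and 10.8% (9.18 to 12.7), and post-reproduction did not overlap the others. Scaled to placed reads, the log2 ratio of the anchor to post-reproduction was -0.46 for early arousal and -0.59 for late torpor, while that of the partner corresponded to 1.32 and 1.27 times the post-reproduction level. The anchor reads were 24 bases long in 98.5% of cases, the upper limit of the lengths counted, and with only 21 to 23 bases counted the share ratios to post-reproduction were 1.08 and 1.20, down from 1.82 and 1.90. miR-872, a rodent miRNA, had 66, 78 and 63 partner reads and shares of 13.4% (10.2 to 17.4), 25.7% (19.7 to 33.0) and 20.5% (15.4 to 27.0). Its share was highest in early arousal, above the post-reproduction interval, while the late torpor interval overlaps both others. For miR-28 the shares were 32.4% (26.6 to 39.3), 42.5% (34.8 to 51.7) and 40.1% (32.4 to 49.5), with overlapping intervals.

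Late torpor was highest for miR-25, a member of the miR-106b cluster in the Mcm7 gene of mammals. It had 49, 86 and 143 partner reads on 490, 645 and 734 anchor reads, and shares of 10.0% (7.30 to 13.4), 13.3% (10.5 to 16.7) and 19.5% (16.2 to 23.3). Late torpor and post-reproduction do not overlap. Only miR-486, a miRNA of red blood cells hosted by the Ank1 gene of mammals, had its highest share in post-reproduction among the 16 hairpins with at least 50 partner reads. Its 89, 38 and 73 partner reads on 487, 247 and 642 anchor reads gave shares of 18.3% (14.4 to 22.9), 15.4% (10.6 to 21.7) and 11.4% (8.80 to 14.5). miR-126, the endothelial miRNA of the Egfl7 gene, had 76, 105 and 109 partner reads, and its shares of 43.2% (32.6 to 56.8), 50% (39.2 to 63.5) and 50.2% (39.5 to 63.5) have overlapping intervals.

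**Figure D2:**
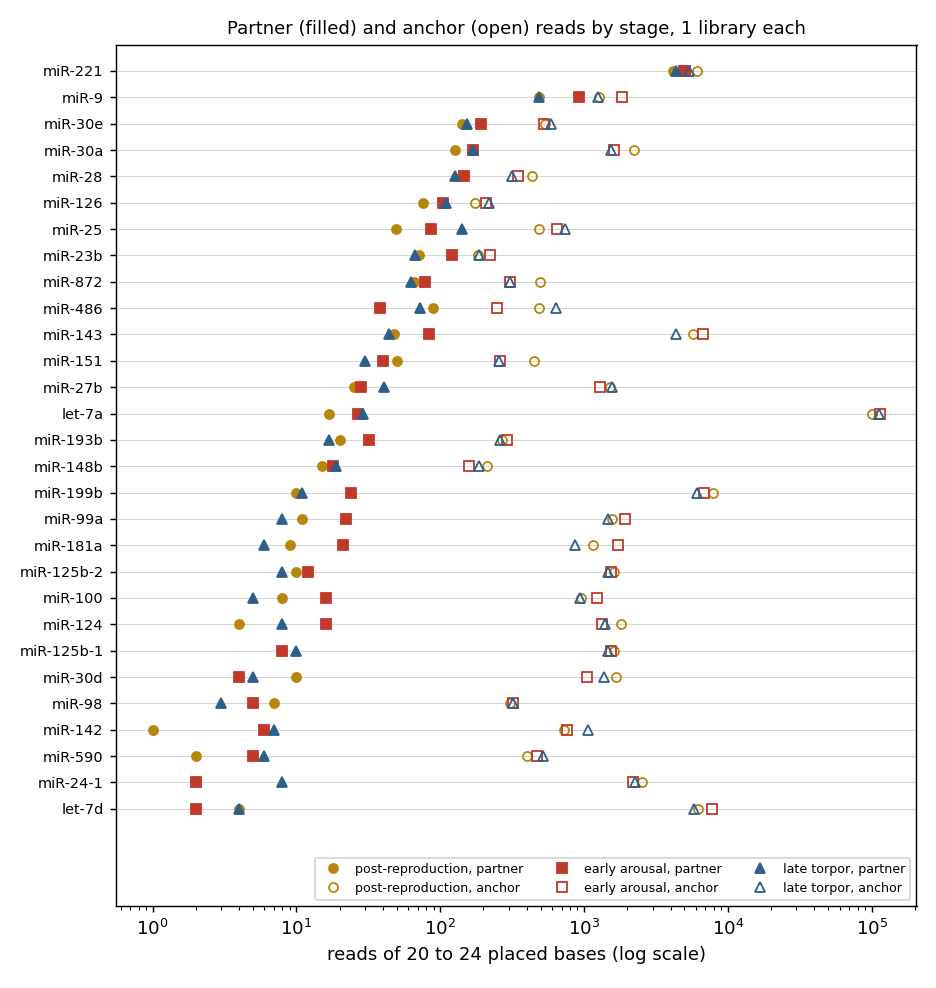
Reads of 20 to 24 placed bases (horizontal log axis) on the lead partner line (filled) and lead anchor line (open) of 29 miRNA hairpins, by stage and with 1 library per stage. Partner reads of miR-9, miR-23b and miR-143 lie furthest to the right in early arousal, at 920, 121 and 84.

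The lowest shares among partners with at least 50 reads belonged to let-7a, miR-143 and miR-27b, besides 2 rRNA pairs. let-7a, one of the most abundant families in the table, had 17, 27 and 29 partner reads on 100499, 114704 and 111863 anchor reads. Its shares were 0.0169% (0.00985 to 0.0271), 0.0235% (0.0155 to 0.0342) and 0.0259% (0.0174 to 0.0372), which overlap. The let-7a anchor sequence was also placed at a locus without a partner line, so its reads cannot be assigned to one hairpin and these shares are not those of a single precursor. miR-143, a smooth muscle miRNA, had 48, 84 and 44 partner reads and shares of 0.837% (0.616 to 1.11), 1.26% (1.0 to 1.56) and 1.01% (0.735 to 1.36). miR-27b, known for repressing genes of lipid metabolism, had 25, 28 and 41 partner reads and shares of 1.66% (1.07 to 2.46), 2.15% (1.42 to 3.13) and 2.60% (1.86 to 3.55). Over the 29 hairpins the share ran from 0.0223% to 82.3% with a median of 1.59%, a far wider range than that of any one hairpin over the stages.

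**Figure D3:**
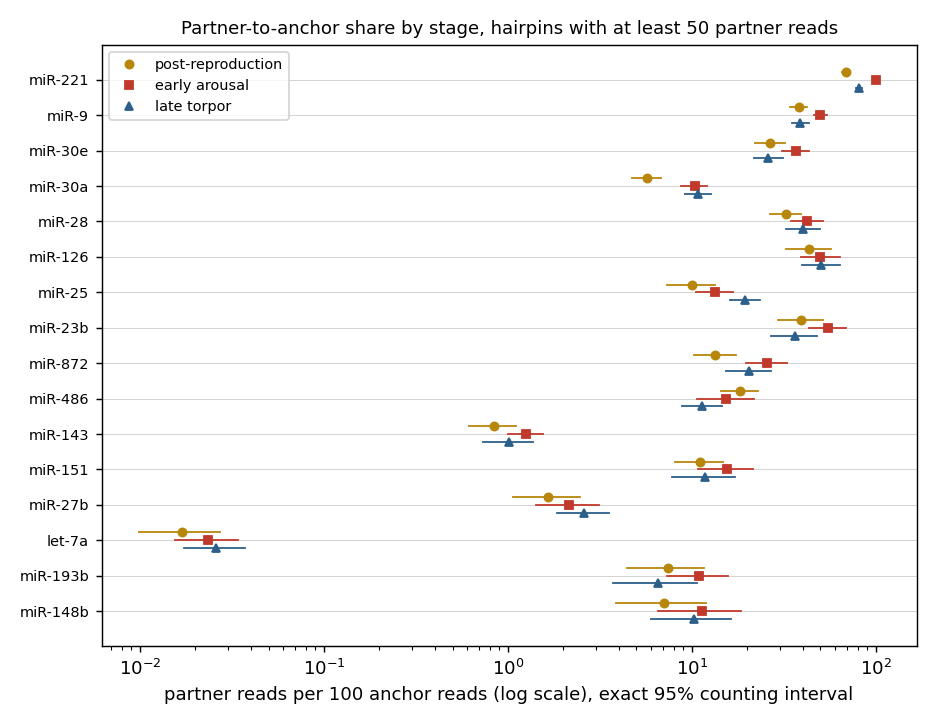
Partner reads per 100 anchor reads (horizontal log axis) with exact 95% counting intervals, for the 16 miRNA hairpins with at least 50 partner reads, by stage and with 1 library per stage. The miR-221 points run from 68.4 to 101 and the let-7a points from 0.0169 to 0.0259.

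In early arousal against post-reproduction, 10 of 33 loci with at least 50 partner reads over both libraries differed at least 2-fold in share (30.3% of loci compared, with 27.3% higher and 3.03% lower), or 4 of 22 distinct pairs (18.2%), 3 higher (13.6%) and 1 lower (4.55%). All 4 were rRNA pairs, and 0 of 14 hairpins with that many partner reads reached 2-fold. The balance of the locus counts turned to 9 higher and 101 lower with summed arms and to 11 higher and 47 lower from 20 partner reads on, where unnamed loci gave 98 and 45 of the lower calls. The 51 unnamed pairs lay at 1059 loci. The 45 are all copies of the 1 unnamed pair with at least 10 partner reads, counted at each placement, so this balance is not one of separate sequences. Of 25 hairpins with at least 10 partner reads, 22 had the higher share in early arousal, against 73.2% of all 41 distinct pairs, and the interval lay above 1 in 8 and below 1 in 0, against 34.1% above and 12.2% below of all pairs. The median ratio of the 25 shares was 1.40, and with summed arms 21 of the 25 were higher with a median of 1.37. miR-872 had a ratio of 1.91 (1.32 to 2.78), miR-30a 1.82 (1.42 to 2.33), miR-143 1.5 (1.04 to 2.19), miR-221 1.47 (1.39 to 1.55), miR-30e 1.38 (1.07 to 1.78) and miR-9 1.31 (1.15 to 1.5). With only 21 to 23 bases counted, the intervals of miR-872, miR-30a and miR-30e included 1. The other 2 of the 8 were past 2-fold on few partner reads. miR-199b, with 10 partner reads in post-reproduction and 24 in early arousal, had a ratio of 2.74 (1.26 to 6.43), and miR-124, with 4 and 16, had 5.42 (1.74 to 22.3). The miR-199b anchor has the sequence of the miR-199a anchor, so its reads cannot be assigned to one hairpin. The hairpins share their 2 libraries and are not replicates of the stage.

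In late torpor against post-reproduction, 9 of 32 loci (28.1%, with 25% higher and 3.12% lower) and 5 of 21 distinct pairs (23.8%) differed at least 2-fold in share, 4 pairs higher (19%) and 1 lower (4.76%). These too were rRNA pairs, with 0 of 13 hairpins at 2-fold. The locus counts turned to 12 higher and 99 lower with summed arms and to 14 higher and 48 lower from 20 partner reads on, with 98 and 45 of the lower calls at unnamed loci. Here too the 45 are copies of the 1 unnamed pair with at least 10 partner reads. Of 26 hairpins with at least 10 partner reads, 16 had the higher share in late torpor, against 64.3% of all 42 pairs. The interval lay above 1 in 4 hairpins and below 1 in 1, against 26.2% and 14.3% of all pairs. Past 2-fold from 10 reads on were miR-124 and miR-24-1 (higher) and miR-98 (lower), each with an interval that includes 1. Those above were miR-25 with a ratio of 1.95 (1.37 to 2.81), miR-30a with 1.90 (1.49 to 2.44), miR-872 with 1.53 (1.03 to 2.26) and miR-221 with 1.19 (1.12 to 1.25). With 21 to 23 bases the intervals of miR-30a and miR-872 included 1. The one below was miR-486 with 0.622 (0.440 to 0.878). The comparison shares its post-reproduction library with the one above.

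Between the hibernation stages, 2 of 30 loci (6.67%) and 2 of 20 distinct pairs (10%) differed at least 2-fold in share, both rRNA pairs lower in early arousal, with 0 of 14 hairpins. Of 26 hairpins with at least 10 partner reads, 18 had the higher share in early arousal, against 60% of all 40 pairs, and the interval lay above 1 in 4 and below 1 in 1, against 10% and 15% of all pairs. The ratio was 1.51 (1.04 to 2.20) for miR-23b, 1.41 (1.10 to 1.81) for miR-30e, 1.29 (1.13 to 1.47) for miR-9 and 1.24 (1.17 to 1.31) for miR-221, and 0.684 (0.507 to 0.920) for miR-25. With summed arms, miR-9 moved to 1.09 and miR-23b to 1.29, and both intervals then included 1. Past 2-fold from 10 reads on were miR-99a, miR-100 and miR-124 (higher) and miR-24-1 (lower), again with intervals that include 1. By stage, 17 of the 29 hairpins had their highest share in early arousal, 9 in late torpor and 3 in post-reproduction, and over all 45 pairs the counts were 21, 16 and 8.

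**Figure D4:**
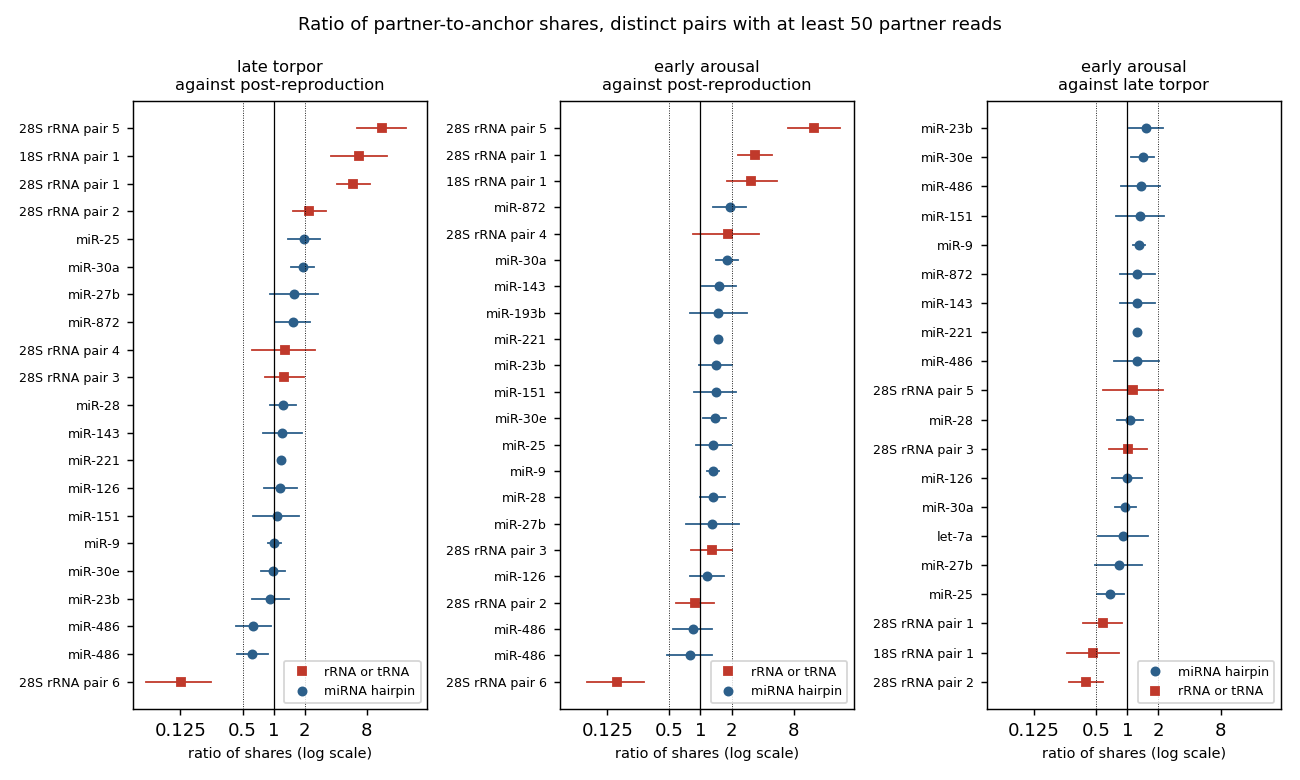
Ratio of the partner-to-anchor share between 2 libraries (horizontal log axis) with exact 95% counting intervals, for distinct pairs with at least 50 partner reads over both libraries. Dotted lines mark 2-fold. The points beyond 2-fold are rRNA pairs (red squares), and 13 of the 14 hairpins compared between early arousal and post-reproduction lie above 1, with miR-486 (drawn once for each strand) below.

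28S rRNA pairs 5 and 6 were picked for description only because their share ratios passed 2-fold, so these ratios are part of the choice. In 28S rRNA pairs 1 and 5 and 18S rRNA pair 1 the anchor counts differed more between the summer and the late torpor library than the partner counts did. 28S rRNA pair 1 had 102, 87 and 123 partner reads on 387, 97 and 79 anchor reads, so its share went from 26.4% (21 to 32.9) to 89.7% (66.4 to 121) and 156% (116 to 209). Against post-reproduction the ratios were 3.40 (early arousal) and 5.91 (late torpor), and with only 21 to 23 bases counted they were 1.67 and 2.56. With summed arms the first was 2.11. Scaled to placed reads, the partner level was 0.853 times (early arousal) and 1.16 times (late torpor) that of post-reproduction. 28S rRNA pair 5 had 44, 33 and 39 partner reads on 688, 41 and 55 anchor reads, with share ratios of 12.6 (6.95 to 22.5) in early arousal and 11.1 (6.41 to 19.0) in late torpor against post-reproduction. Its anchor reads had 20 bases, the lower limit, in 88.5% of cases, and with 21 to 23 bases the ratios were 3.93 (1.58 to 9.85) and 3.71 (1.56 to 8.93). Summed arms gave 7.35 in late torpor. 18S rRNA pair 1 had 25, 40 and 27 partner reads on 668, 343 and 107 anchor reads, with ratios of 3.12 (1.81 to 5.45) and 6.74 (3.60 to 12.6). Both pairs had fewer anchor reads in the hibernation stages, while their partner counts lay between 25 and 44.

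28S rRNA pair 6 went the other way: its 68, 15 and 11 partner reads stood on 188, 266 and 241 anchor reads, with ratios of 0.156 (0.0805 to 0.287) and 0.126 (0.0587 to 0.250) against post-reproduction. With 21 to 23 bases the second was 0.197, and with summed arms the first was 0.347. 28S rRNA pair 2, with 53, 45 and 88 partner reads on 1264, 1214 and 953 anchor reads, had a share 2.20 times (1.53 to 3.19) that of post-reproduction in late torpor, where the partner level was 1.59 times and the anchor level 0.722 times that of post-reproduction. With 21 to 23 bases this share ratio was 1.39 (0.805 to 2.40). The pair was lower in early arousal than in late torpor, at 0.401 (0.271 to 0.588). 28S rRNA pair 3, with 46, 56 and 66 partner reads, had shares of 20.1%, 25.8% and 25.4% with overlapping intervals. With 18 to 26 bases counted, the share of early arousal was 3.48 times (2.81 to 4.31) that of post-reproduction and 4.39 times (3.54 to 5.45) that of late torpor, and the ratio of late torpor to post-reproduction turned from 1.26 to 0.792 (0.618 to 1.02). No RNA quality value per library was at hand, and its part in the rRNA shares was not tested.

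Families and lists were read through the anchors. The let-7 family (7 hairpins) had 6 with a partner line, 3 with at least 10 partner reads and a median share of 0.00108%, against 0.196% over the 68 hairpins. let-7f-1 had 2, 5 and 1 partner reads on 539377, 586257 and 608159 anchor reads. let-7b, with 37327, 28459 and 27108 anchor reads, had no partner read, which allows a share of up to 0.00804%, 0.0105% and 0.0111%. The miR-29 family (3 hairpins) had partners of under 10 reads throughout, although miR-29a had 25695, 28203 and 27364 anchor reads. The miR-30 family had a partner at each of 3 hairpins, with a median share of 8.56%. Hairpins known for RNA from both arms (11) had a partner each, 7 with at least 10 reads. Within this list miR-140, miR-199a, miR-101 and miR-378a had 6, 5, 1 and 2 partner reads in all, on anchors of 38832, 20880, 66379 and 54694 reads, so these members had almost no placed reads on the second arm.

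The 2 hairpins that skip a processing step had a median share of 0.0836%, against 0.196% over the 68 hairpins. Only 29 of the 68 had at least 10 partner reads, so few partner reads were not particular to these 2. miR-451a, which is cut by Argonaute instead of Dicer and so leaves no duplex, had 2 partner reads, both in late torpor, on 274, 340 and 582 anchor reads, 27 bases away with 12 paired bases. miR-320a, which does not need Drosha, had none on 3656, 2558 and 2221 anchor reads. miR-1, miR-26b and miR-184 also had none, with up to 16682 anchor reads in one library. A partner whose sequence differs from the genome used would leave no placed read; this was not tested.

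Markers of other cells were among the anchors. The neural list had 3 of 3 members, with 8093, 8536 and 6993 summed anchor reads, the erythroid list 2 of 3 with 761, 587 and 1224, and the mesenchymal list 2 of 4 with 13595, 13557 and 10485. In early arousal against post-reproduction the members of the last 2 lists went opposite ways. The anchor of miR-486 was at 0.507 times its level, while miR-451a had more anchor reads. The anchor of miR-143 was at 1.17 times and the sequence shared by miR-199a and miR-199b at 0.875 times. miR-1, 1 of 3 muscle markers, had 8712, 16682 and 12404 anchor reads, miR-142, 1 of 5 leukocyte markers, 732, 757 and 1071, and miR-126, the endothelial marker, 176, 210 and 217. None of 5 epithelial markers was an anchor. In RNA of whole liver, fewer cells of a type and less RNA per cell cannot be told apart, and the part of such cells in the shares of miR-9, miR-486, miR-143 and miR-126 was not tested.

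Levels of the partners themselves were compared after scaling to the placed reads of each library. In early arousal against post-reproduction, 6 of 33 loci differed at least 2-fold, all lower, or 4 of 22 distinct pairs, against 30.8% of 782 distinct leading sequences of the table (61% of all positions), 19.6% being lower (48.4% of positions). Of 25 hairpins with at least 10 partner reads, 21 were higher, against 25 of all 41 distinct pairs. The hairpin median ratio was 1.36, or 1.34 from 50 partner reads on, beside 1.04 over the 782 sequences. The table-wide values have a minimum of 50 reads over both libraries. In late torpor against post-reproduction the counts were 5 of 32 loci and 3 of 21 pairs, against 34.2% (68.5% of positions), 25.4% being lower (55.8%). The hairpin median was 0.937, or 0.960 from 50 partner reads on, beside 0.855. Among hairpins with at least 50 partner reads over both libraries, miR-25-5p in this comparison was the only partner above 2-fold, at 2.80 (2.01 to 3.95). miR-486-3p in early arousal against post-reproduction was the only one below, at 0.427. From 10 reads on, 2 of 26 hairpins were above and 2 below in late torpor against post-reproduction, against 2 and 6 of all 42 distinct pairs. In early arousal against post-reproduction 5 of 25 were above and 2 below, against 5 and 9 of all 41 pairs. In early arousal against late torpor 5 of 26 were above and 1 below, against 5 and 4 of all 40 pairs. Between early arousal and late torpor 1 of 30 loci passed, against 19.4% (44.2% of positions), 4.37% being lower (19.5%). The hairpin median was 1.26 beside 1.22, but 1.21 from 50 partner reads on. Levels depend on the scale. Median-of-ratios size factors were taken over the 1733 positions with at least 50 reads in every library, copies included. With them the log2 ratios shift by -0.37, 0.28 and -0.65 in early arousal against post-reproduction, late torpor against post-reproduction and early arousal against late torpor. This brings the hairpin median of late torpor against post-reproduction above 1 and that of early arousal against late torpor below 1, whereas shares do not change with the scale. Level ratios of early arousal against post-reproduction, and so the hairpin median of 1.36, are multiplied by 0.773. The 21 higher of 25 hairpins were not recounted at that scale.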

How the data were processed

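Small RNA libraries of 3 stages, 1 per stage, were compared. The values are whole-number read counts as deposited by the authors, 1 count per read sequence placed at a scaffold position, and per the file headers each entry gives the sequence, its reads and its stage. A read sequence has 30 bases with its placed part in capitals, of at least 18 letters. The aligner and build were not stated in the sources used. Reads that fit more than 1 position are counted in full at every one of them. A position is the leftmost base, so plus-strand lines collect reads with one 5′ end and minus-strand lines reads with one 3′ end.

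Reads with 20 to 24 capitals were summed per position and stage with Python 3.11.15 and numpy 2.4.6. Share ratios have exact conditional 95% intervals, and level ratios scaled to placed reads and single shares have exact binomial ones (scipy 1.17.1). A count of 0 was given a limit of 3 reads. Pairs with at least 50 partner reads over both libraries were compared at 2-fold, and directions were counted from 10 reads. Pairs were named for most partner reads, or for the highest or lowest shares from 50 partner reads on. Pairs with the most extreme share ratios past 2-fold, with an interval leaving out 1, were also named, as were members of the lists. Scripts were tested on simulated data. The members, lists and names were chosen with earlier results of these data known.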

Additional observations from a re-analysis of the deposited data

How the results depend on the processing

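No paired analysis was possible because each stage is 1 library and no test was made. Counts of loci at 2-fold moved with most settings. Of the share calls of either hibernation stage against post-reproduction, unnamed loci gave 98 with summed arms and 45 with a minimum of 20 partner reads over both libraries, all lower. The 45 are copies of the 1 unnamed pair with at least 10 partner reads, counted at each placement. The cause of the other moves was not tested. For the share in late torpor against post-reproduction the count of 9 became 22 with 18 to 26 bases, 1 with 21 to 23, 2 and 29 with anchor minimums of 1000 and 200, 1 with singly placed sequences, 111 with summed arms (12 higher and 99 lower, against 8 and 1), 62 with a minimum of 20 reads (14 and 48), 17 at 1.5-fold and 5 with equal sequences counted once, a setting added after seeing the data. In the same order, the level count of 5 became 1 with 21 to 23 bases, then 1, 12, 1, 105 and 51, then 2 with a minimum of 100 reads, 8 and 3, where the single calls were higher and the 5 were 1 higher and 4 lower. For early arousal against post-reproduction the share count of 10 became 17, 0, 1, 19, 0, 110 (9 higher and 101 lower, against 9 and 1), 58 (11 and 47), 5 with a minimum of 100 reads, and 4 with equal sequences once. The level count of 6 became 2 with 21 to 23 bases, 2 with anchors of 1000, 0 singly placed, 107 with arms, 57 and 2 with minimums of 20 and 100 reads, and 14 at 1.5-fold (8 higher and 6 lower, against 0 and 6). For early arousal against late torpor the share count of 2 became 13, 1, 1 with distances of 30 to 50, 12 with anchors of 200 (6 higher and 6 lower, against 0 and 2), 1 singly placed, 6 with arms, 5 (3 and 2) and 1 with minimums of 20 and 100 reads, and 8 at 1.5-fold. The level count of 1, which was lower, became 7 (4 higher and 3 lower), 2, 7 with anchors of 200 (5 and 2), 0 singly placed, 6 (5 and 1) and 0 with minimums of 20 and 100 reads, and 10 at 1.5-fold (6 and 4). The scalings went opposite ways, with 4 higher and 0 lower when scaled to reads of 20 to 24 bases and 0 higher and 10 lower with size factors.

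The summed share of all loci was 0.481%, 0.487% and 0.418% for the summer, early arousal and late torpor libraries. It became 0.367%, 0.503% and 0.388% with 21 to 23 bases, 0.379%, 0.473% and 0.383% with anchors of 1000, 0.639%, 0.560% and 0.484% with anchors of 200, 2.53%, 3.15% and 3.10% singly placed, 0.723%, 0.645% and 0.591% with arms, 0.290%, 0.240% and 0.198% without miR-221, and 0.420%, 0.469% and 0.403% with equal sequences once. Distances of 30 to 50 gave 0.417% in post-reproduction and 0.407% in late torpor, and 18 to 26 bases gave 0.461% in early arousal. Hairpins alone, added after seeing the data, gave 0.435% in post-reproduction and 0.513% in early arousal, and without miR-221 0.118%, 0.160% and 0.118%. Early arousal was therefore highest by hairpins and not under every other setting. The 164 loci with at least 10 partner reads became 35 with 21 to 23 bases, 108 with distances of 30 to 50, 89 and 463 with anchors of 1000 and 200, 18 singly placed and 45 with equal sequences once. Their median of 10 paired bases became 16 with 21 to 23 bases, 16 singly placed and 15 with equal sequences once. No share ratio of a named pair whose interval left out 1 went to the other side of 1. Those of 28S rRNA pair 3 moved with 18 to 26 bases to 3.48 and 4.39 for early arousal against post-reproduction and late torpor, both intervals now above 1, and to 0.792 for late torpor against post-reproduction. That of 28S rRNA pair 2 in early arousal against post-reproduction moved from 0.884 to 0.574 with 21 to 23 bases. With 21 to 23 bases the ratio to post-reproduction no longer had an interval above 1 for miR-30e, miR-30a and miR-872 in early arousal and for miR-30a, miR-872 and 28S rRNA pair 2 in late torpor, nor did that of miR-30e between the hibernation stages, the interval of 28S rRNA pair 1 between these stages (0.386 to 1.10) was no longer below 1, and those of miR-9 and miR-23b between the hibernation stages no longer had one with summed arms. The 1 library per stage limits every comparison to counting error.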
